A study of Homo sapiens with 16 samples.

Results

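The plasminogen activator system is described here by 5 genes, PLAU, PLAT, PLAUR, SERPINE2 and SERPINB2, taken by name from the 26258 genes of an RNA sequencing table of 2 human hepatocellular carcinoma cell lines. The genes were matched by their NCBI gene identifiers (5328, 5327, 5329, 5270 and 5055), and all 5 of 5 were found. These genes and the other gene lists below were chosen with earlier results of these data known. Huh7 and Hep3B cells had been made resistant to Sorafenib, a multikinase inhibitor given for liver cancer, either in rising concentrations of the drug (IR) or at a constantly high concentration (CR). The 8 groups, each with 2 libraries, were the untreated parental cells of each line, cells of each line labelled DMSO (the vehicle of the drug) and also labelled untreated, and the resistant cells of each line, called Huh7-IR and Huh7-CR or Hep3B-IR and Hep3B-CR, which the labels give as treated with 7 µM Sorafenib. The IR and CR comparisons of each line share their parental libraries and are not independent. Because the resistant cells were grown in the drug, acquired resistance and the presence of Sorafenib cannot be told apart, and the sources used here do not say whether each resistant line is 1 clone. The medium is stated for Huh7 cells only. The study's methods describe biological triplicates of extracted RNA, whereas the labels give 2 libraries a group and do not say that these came from separate cultures. If they did not, the p-values measure only a technical spread between libraries.

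Plasminogen is a blood zymogen made mainly by hepatocytes. The urokinase-type activator uPA (PLAU) and the tissue-type activator tPA (PLAT) cut it to plasmin, a protease that degrades fibrin and extracellular matrix, and the receptor uPAR (PLAUR) holds uPA at the cell surface. Inhibitors of the serpin family oppose the activators: protease nexin 1 (SERPINE2) inhibits thrombin as well as both activators, and PAI-2 (SERPINB2) inhibits both activators and is largely kept inside cells. In liver cancer, uPA and uPAR are best known for their part in invasion. Protein and protease activity were not measured, and every value here is an mRNA level.

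The values deposited by the authors are CPM, the reads of a gene scaled to the total of its library (counts per 1000000), and the libraries held 46613302 to 76860251 reads in genes. Differences were tested with limma on log2(CPM + 1) over 15019 genes, those that reached 1 CPM in 2 or more libraries. A gene was called where the Benjamini-Hochberg adjusted p was under 0.05 and the log2 fold change was at least 0.58 in size, and rose or fell is written of called genes only. Fold changes on this scale understate the change of genes near 1 CPM. All 5 genes passed the filter, 3 of them (PLAU, PLAUR and SERPINE2) also on the parental and DMSO libraries alone. PLAT passed only through resistant libraries and SERPINB2 only through those of Huh7-CR, in which they were high, so the SERPINB2 changes are given as a description and PLAT is given without a filter as well. Summed CPM of 12 hepatocyte genes ran from 11144 to 16642 in Huh7 parental cells and from 17643 to 22155 in Hep3B parental cells, and was 129 to 524 in Huh7-IR and 1426 to 2903 in Huh7-CR. In the Hep3B lines it was 3619 to 10456 after rising and 1364 to 2288 after constant dosing. The sums of the DMSO cells were above the parental sums without overlap, at 23577 to 28516 in Huh7 and 32234 to 38785 in Hep3B. All 12 reached 1 CPM in both libraries of each Hep3B group and of the Huh7 parental and DMSO cells, against 10 of 12 in Huh7-IR and in Huh7-CR. The part of these hepatocyte levels in the results was not tested.

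The promoter sequences are shown for 4 of the 5 genes, and that of PLAT was left out. PLAU, PLAUR and SERPINE2 were taken since they rose in all 4 resistant populations, with SERPINB2 for contrast. The letters of known factor sites can be read in the sequences. Each is the 250 bases before an annotated start, 5′ to 3′ on the gene's strand, in build GRCh38.p14. Capitals mark exact matches on either strand to AP-1 (TGANTCA), ETS (CGGAAG), the hypoxia response cores ACGTG and GCGTG, TEAD (GGAATG) and SP1 (GGGCGG), and touching or overlapping matches are printed as 1 run. RefSeq gave 2 starts each for PLAU and SERPINE2, of which the start with the larger number of different motifs is shown.
PLAU, chr10:73910882-73911131, plus strand: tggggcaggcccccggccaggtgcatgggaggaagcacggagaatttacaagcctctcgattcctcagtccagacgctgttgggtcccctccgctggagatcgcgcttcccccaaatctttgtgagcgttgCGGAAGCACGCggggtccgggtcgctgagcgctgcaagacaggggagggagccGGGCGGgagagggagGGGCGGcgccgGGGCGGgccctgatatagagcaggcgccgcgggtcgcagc
PLAUR, chr19:43670170-43670419, minus strand: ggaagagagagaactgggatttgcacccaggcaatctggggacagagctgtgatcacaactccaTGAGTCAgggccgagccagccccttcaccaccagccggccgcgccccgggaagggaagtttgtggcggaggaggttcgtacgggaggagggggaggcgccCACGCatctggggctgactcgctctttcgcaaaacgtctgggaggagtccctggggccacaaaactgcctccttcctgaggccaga
SERPINE2, chr2:224031479-224031728, minus strand: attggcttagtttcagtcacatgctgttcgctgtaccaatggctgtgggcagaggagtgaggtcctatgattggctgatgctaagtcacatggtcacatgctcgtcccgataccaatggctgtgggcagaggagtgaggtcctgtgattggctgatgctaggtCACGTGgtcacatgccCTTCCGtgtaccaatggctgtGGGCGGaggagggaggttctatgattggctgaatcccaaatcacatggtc
SERPINB2, chr18:63887455-63887704, plus strand: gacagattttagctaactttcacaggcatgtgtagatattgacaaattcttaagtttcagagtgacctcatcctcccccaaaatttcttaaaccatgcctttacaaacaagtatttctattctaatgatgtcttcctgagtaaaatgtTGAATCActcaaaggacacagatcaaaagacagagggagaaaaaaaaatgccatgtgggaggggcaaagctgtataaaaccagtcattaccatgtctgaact

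An AP-1 motif stood in the PLAUR window, as TGAGTCA starting 186 bases before the start site, and in the SERPINB2 window, as TGAATCA starting 102 bases before it. AP-1 motifs were found in 6.57% of 35116 RefSeq promoters of this length. The PLAU window held an ETS motif at 119 bases, followed without a gap by a GCGTG core read on the other strand at 113 bases, and SP1 motifs at 66, 51 and 40 bases before the start. PLAUR also held a GCGTG core on the other strand at 86 bases. The SERPINE2 window held CACGTG, which carries the ACGTG core on both strands, at 87 bases, an ETS motif on the other strand at 71 bases and an SP1 motif at 50 bases. The share of all promoters with a match was 16.5% for ETS, 18.5% for ACGTG, 32.2% for GCGTG, 11.9% for TEAD and 42.6% for SP1. The second PLAU window held none of these letters, and the second SERPINE2 window held a GCGTG core and 2 SP1 motifs. The PLAU and SERPINE2 windows were picked by their number of motifs, so the shares of all promoters are no fair background for them. Which start the cells use was not tested. A match is a run of letters and was not tested as a binding site.

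PLAU, PLAUR and SERPINE2, the 3 genes that passed the filter without the resistant libraries, rose in all 4 resistant populations, and none fell. The SERPINE2 call in Huh7-IR was lost in 10 of 17 alternatives. Over all genes tested, 31.1% and 20.9% were called higher in the Huh7 comparisons and 15.7% and 20.0% in those of Hep3B, in the order IR and CR. Since the genes were chosen with earlier results of these data known, their count beside these shares is a description and not a test. PLAT also rose in both Huh7 comparisons, and SERPINB2 was counted in resistant Huh7 cells alone. The median log2 fold change of the 3 genes was 2.31, 1.85, 1.94 and 2.70 in that order, beside 0.19, 0.07, 0.06 and 0.11 for all genes tested. In the DMSO cells no gene of the 5 was called in either line, where 4.83% of all genes were called in either direction in Huh7 and 1.58% in Hep3B. At an unadjusted p under 0.05 the DMSO counts were 2 in Huh7 (PLAUR and SERPINE2) and 1 in Hep3B (SERPINE2), edgeR gave 0 in both, and DESeq2 gave the same 2 and 1.

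**Figure D1:**
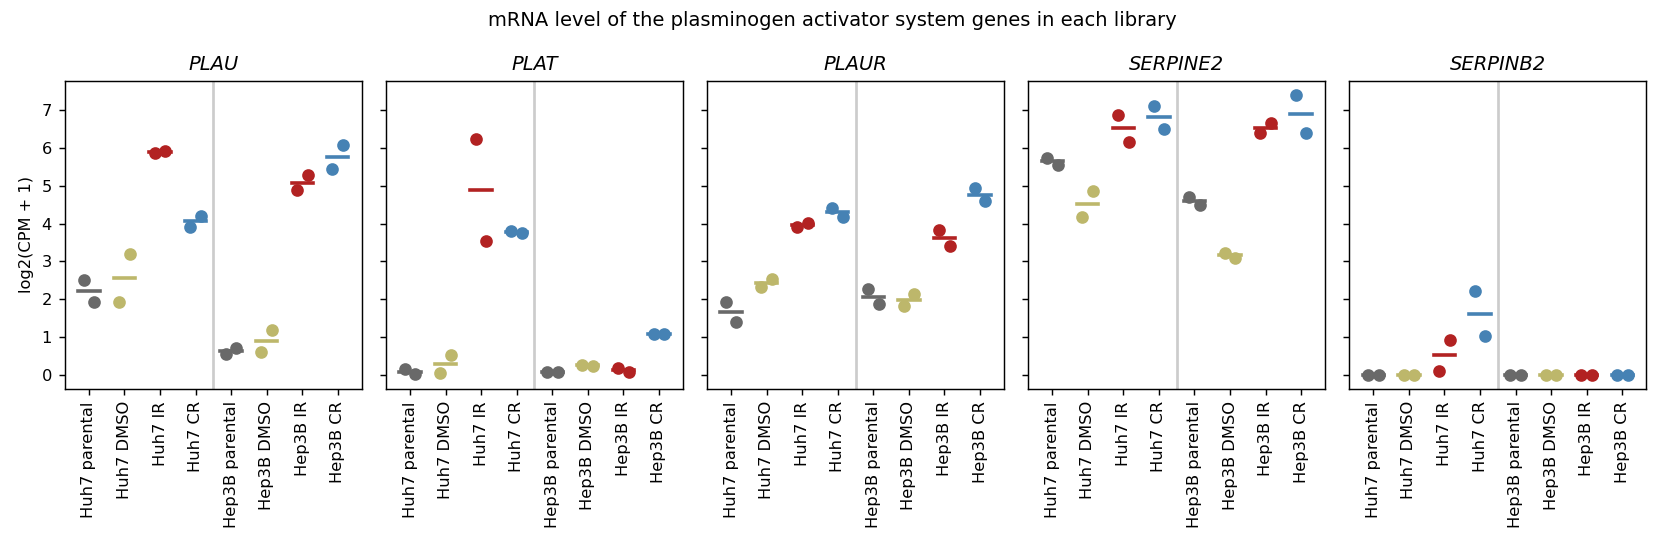
log2(CPM + 1) of PLAU, PLAT, PLAUR, SERPINE2 and SERPINB2 in each of the 16 libraries, by group, with points for the 2 libraries and a bar at their mean. PLAU, PLAUR and SERPINE2 lie higher in all 8 resistant libraries than in the parental and DMSO libraries of the same line, PLAT is high only in resistant Huh7 cells (10.6 to 74.5 CPM), and SERPINB2 was counted only in resistant Huh7 cells.

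PLAU, the gene of uPA, lies on chromosome 10 at 75668935 to 75677254 (GRCh37, plus strand). In Huh7 cells its level was 4.70 and 2.80 CPM in parental cells, 2.80 and 8.09 CPM in DMSO cells, 57.6 and 59.7 CPM in Huh7-IR and 14.1 and 17.5 CPM in Huh7-CR. In Hep3B cells it was 0.458 and 0.619 CPM in parental cells, 0.520 and 1.26 CPM in DMSO cells, 28.6 and 37.7 CPM in Hep3B-IR and 42.8 and 66.2 CPM in Hep3B-CR. Every resistant library was above every parental and DMSO library of its line, while parental and DMSO cells overlapped in both lines. On the log2 scale the rise in Huh7 was 3.68 in IR cells (SE 0.37, limma adjusted p = 7.3e-06) and 1.85 in CR cells (adjusted p = 0.00194). In Hep3B it was 4.46 in IR cells (adjusted p = 4.7e-06) and 5.14 in CR cells (limma adjusted p = 1.7e-06). As a ratio of mean CPM over parental cells these changes were 15.6-fold, 4.22-fold, 61.6-fold and 101-fold. Huh7-IR cells had more PLAU mRNA than Huh7-CR cells, by 1.83 (limma adjusted p = 0.00890), with no overlap between the libraries. That call was lost without Huh7-CR replicate 1 (1.69, adjusted p = 0.0605) and with Huh7 or the 2 groups modelled alone (1.83, adjusted p = 0.0843 and 0.126). The same contrast in Hep3B was -0.68 (limma adjusted p = 0.253). A gene of a long non-coding RNA, C10orf55, lies over PLAU on the other strand. It had 0 to 0.232 CPM, and since the strand setting of the counting is not given, reads of the pair cannot be told apart.

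PLAT, the gene of tPA (chromosome 8), was near 0 in both parental lines and rose in Huh7. Its level was 0.102 and 0.0134 CPM in Huh7 parental cells (7 reads and 1 read), 0.0276 and 0.431 CPM in Huh7 DMSO cells, 74.5 and 10.6 CPM in Huh7-IR and 12.9 and 12.6 CPM in Huh7-CR. In Hep3B it was 0.0538 and 0.0563 CPM in parental cells, 0.195 and 0.178 CPM in DMSO cells, 0.134 and 0.0426 CPM in Hep3B-IR, and 1.10 CPM in both Hep3B-CR libraries. The 4 resistant Huh7 libraries stood at 10.6 CPM or more and all other libraries at 1.10 CPM or less. The rise of PLAT was 4.81 in Huh7-IR (SE 0.57, limma adjusted p = 2.4e-05), and Huh7-CR cells had a rise of 3.70 (adjusted p = 0.000305). Without a filter on low values the adjusted p of these changes was 0.000218 and 0.0018. The libraries of Huh7-IR differed 7.03-fold from each other. Without Huh7-IR replicate 1 the change was 3.46 and still called, and the contrast of Huh7-IR with Huh7-CR, 1.11 over all libraries (adjusted p = 0.198), became -0.24. In Hep3B-IR the change was 0.04 (limma adjusted p = 0.980). In Hep3B-CR it was 0.99 and was not called (limma adjusted p = 0.190). Both Hep3B-CR libraries nevertheless lay above all other Hep3B libraries, with 141 reads against 8 in the parental pair, a 20.0-fold ratio of mean CPM. That rise was called with a pseudocount of 0.25 CPM (2.15), by edgeR (4.16) and by DESeq2 (4.19) on the recovered reads, and when Hep3B or the 2 groups were modelled alone (0.99).

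PLAUR, the gene of uPAR, lies on chromosome 19 at 44150247 to 44174699 (GRCh37, minus strand). Its level in Huh7 was 2.76 and 1.61 CPM in parental cells, 3.99 and 4.80 CPM in DMSO cells, 14.0 and 15.1 CPM in Huh7-IR and 20.4 and 17.2 CPM in Huh7-CR. In Hep3B it was 3.80 and 2.63 CPM in parental cells, 2.55 and 3.40 CPM in DMSO cells, 13.3 and 9.64 CPM in Hep3B-IR and 29.5 and 23.2 CPM in Hep3B-CR. The 4 resistant groups did not overlap with the parental or DMSO groups of their line, and the CR cells stood above the IR cells in both lines. PLAUR rose by 2.31 in the IR cells (SE 0.24, limma adjusted p = 9.8e-06) and 2.66 in the CR cells (adjusted p = 5.9e-06) of Huh7. The Hep3B values were 1.56 in IR (adjusted p = 0.000474) and 2.70 in CR cells (limma adjusted p = 9.2e-06). Hep3B-IR was called lower than Hep3B-CR, with a log2 difference of -1.14 (limma adjusted p = 0.00988). That call was lost without Hep3B-IR replicate 2 (-0.93, adjusted p = 0.110) and without Hep3B-CR replicate 1 (-0.97, adjusted p = 0.0822). In Huh7 the IR to CR contrast was -0.34 (limma adjusted p = 0.348). Against DMSO cells in place of parental cells the PLAUR rise in Huh7 was smaller, 1.53 in Huh7-IR and 1.88 in Huh7-CR, and both stayed called. The Huh7 DMSO cells themselves stood 0.78 above parental cells, without overlap and without a call (limma adjusted p = 0.0819).

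SERPINE2, the gene of protease nexin 1, lies on chromosome 2 at 224839762 to 224904035 (GRCh37, minus strand). Its level in Huh7 was 52.3 and 46.1 CPM in parental cells, 17.0 and 27.9 CPM in DMSO cells, 117 and 70.4 CPM in Huh7-IR and 138 and 90.1 CPM in Huh7-CR. In Hep3B it was 25.0 and 21.4 CPM in parental cells, 8.30 and 7.55 CPM in DMSO cells, 83.2 and 100.1 CPM in Hep3B-IR and 169 and 83.7 CPM in Hep3B-CR. Resistant libraries were above parental libraries, and parental above DMSO libraries, in both lines without overlap. Over Huh7 parental cells the rise was 0.87 in IR (SE 0.34, limma adjusted p = 0.0425) and 1.17 in CR cells (adjusted p = 0.0152). Over Hep3B parental cells it was 1.94 in IR (adjusted p = 0.00102) and 2.31 in CR cells (limma adjusted p = 0.000264). The Huh7-IR call was lost in 10 of 17 alternatives, among them edgeR (0.73) and leaving out Huh7-IR replicate 1 (0.51), parental replicate 1 (0.96) or parental replicate 2 (0.78). The Huh7-CR call was lost without parental replicate 2 (1.08) or Huh7-CR replicate 1 (0.86). The contrasts of DMSO with parental cells were -1.13 in Huh7 (limma adjusted p = 0.0714) and -1.43 in Hep3B (limma adjusted p = 0.0586) and were not called. DESeq2 called both of them lower. Measured against DMSO cells, the SERPINE2 rise was 2.01 and 2.30 in the IR and CR cells of Huh7 and 3.37 and 3.75 in those of Hep3B, so the choice of control moved it by more than 1.5 times in every comparison.

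SERPINB2, the gene of PAI-2, lies on chromosome 18 at 61538926 to 61571122 (GRCh37, plus strand), where it overlaps another annotated protein-coding model on the same strand. It had 0 reads in the parental and DMSO libraries of Huh7 and in all 8 Hep3B libraries. It had 0.0663 and 0.901 CPM in Huh7-IR (4 and 42 reads) and 3.62 and 1.02 CPM in Huh7-CR (234 and 78 reads). The gene was thus counted in resistant Huh7 libraries alone, with a 13.6-fold difference between the Huh7-IR libraries. Against a floor of 3 reads over the parental pair (0.0209 CPM), the pooled level was at least 20.6-fold higher in Huh7-IR and at least 106-fold higher in Huh7-CR, and these limits cover counting error only. The fitted log2 change, which depends on the pseudocount, was 1.61 in Huh7-CR and 0.51 in Huh7-IR. It carries no test here, since the Huh7-CR libraries are those that brought the gene into the tested set.

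**Figure D2:**
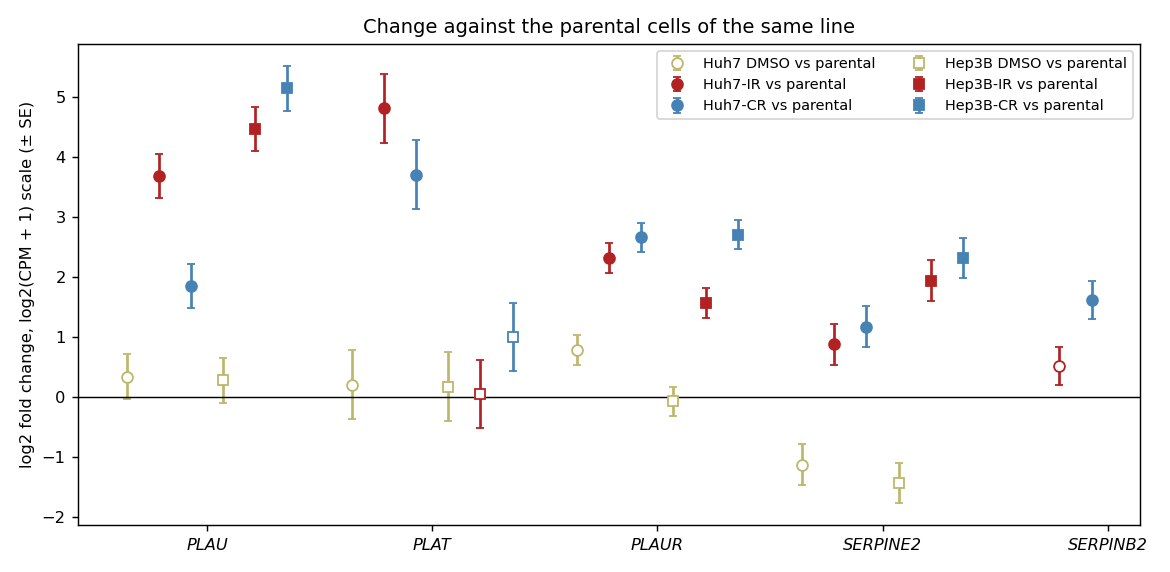
log2 fold change (log2(CPM + 1) scale, bars ± SE from limma) of the 5 genes against parental cells of the same line, with circles for Huh7, squares for Hep3B, and filled symbols for calls. PLAU shows the highest Hep3B values (4.46 and 5.14), PLAT is called in Huh7 alone (4.81 and 3.70), and the DMSO values of SERPINE2 (-1.13 and -1.43) lie below 0 without a call. SERPINB2 is drawn only where it had reads, and its filled symbol in Huh7-CR is a description.

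The lines were compared next, by setting the mean of the IR and CR changes in Huh7 against the same mean in Hep3B. Of the 5 genes, 1 had a smaller change in Huh7 and 1 a larger change, where 13.1% and 16.3% of all genes tested were called in these directions. PLAU changed by 2.76 in Huh7 and by 4.80 in Hep3B, a difference of -2.04 (SE 0.46, limma adjusted p = 0.00523). PLAT changed by 4.25 in Huh7 and by 0.52 in Hep3B, a difference of 3.74 (SE 0.70, limma adjusted p = 0.00183). Without a filter on low values the adjusted p of the PLAT difference was 0.00736. The differences were 0.35 for PLAUR (limma adjusted p = 0.406) and -1.10 for SERPINE2 (adjusted p = 0.0604), neither of which was called.

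The parental lines already differed in PLAU and SERPINE2. Of the 5 genes, 2 were higher in Huh7 than in Hep3B parental cells and none was lower, where 18.9% of all genes were called higher and 23.7% lower. PLAU was higher in Huh7 by 1.60 (limma adjusted p = 0.00340) and SERPINE2 by 1.05 (adjusted p = 0.0204). The SERPINE2 call was lost when any 1 of the 4 parental libraries was left out, with values from 0.95 to 1.16. PLAUR differed by -0.41 (limma adjusted p = 0.179) and PLAT by 0.0022 (adjusted p = 0.999). Between IR and CR cells, 1 of the 5 genes was called higher (PLAU) in Huh7, beside 8.23% of all genes. SERPINB2 was the 1 gene past the thresholds in the lower direction there, beside 5.43%, in a comparison with the libraries that brought it into the tested set. In Hep3B 1 was called lower (PLAUR) and none higher, beside 6.41% and 5.33%.

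Ranked by mean level over the 8 groups, PLAU ran from Hep3B parental and Hep3B DMSO cells, which overlapped, through Huh7 parental and DMSO cells, also overlapping, to Huh7-CR and Hep3B-IR, which stood apart, and then to Hep3B-CR and Huh7-IR, which overlapped. PLAT ran from Hep3B parental through Huh7 parental, Hep3B-IR, Hep3B DMSO and Huh7 DMSO cells to Hep3B-CR, Huh7-CR and Huh7-IR, and the neighbours without overlap were Hep3B-IR and Hep3B DMSO cells, Huh7 DMSO and Hep3B-CR cells, and Hep3B-CR and Huh7-CR cells. PLAUR ran from Huh7 parental through Hep3B DMSO, Hep3B parental and Huh7 DMSO cells, then Hep3B-IR, Huh7-IR, Huh7-CR and Hep3B-CR, and the first 3 of these overlapped with their neighbours while every later step was free of overlap. SERPINE2 ran from Hep3B DMSO to Huh7 DMSO and Hep3B parental cells, which overlapped, and on to Huh7 parental cells, and the 4 resistant groups above them, with means of 91.6 to 126 CPM, overlapped among themselves.

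Levels of different genes were compared per kb of transcript. Among the 5 genes, SERPINE2 stood highest per kb in every group, at 3.56 CPM per kb in Hep3B DMSO cells to 56.7 CPM per kb in Hep3B-CR. PLAU and PLAUR were alike in Huh7 parental cells, at 1.60 CPM per kb each, whereas PLAUR exceeded PLAU in Hep3B parental cells (2.35 against 0.230 CPM per kb). In Huh7-IR the order was reversed, with 25.0 CPM per kb of PLAU and 10.6 of PLAUR.

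The summed level per kb of both activators (PLAU and PLAT) was set beside that of SERPINE2 and SERPINB2, the inhibitors among the 5 genes, in each library, as a description of mRNA with no test. Inhibitors outside the 5 genes are not part of this sum. In Huh7 the inhibitor sum was 11.5 and 17.3 times the activator sum in parental cells, 6.35 and 3.49 times in DMSO cells, 1.07 and 1.11 times in Huh7-IR and 6.25 and 3.55 times in Huh7-CR. For Hep3B the ratio was 52.7 and 34.0 in parental cells, 13.0 and 5.69 in DMSO cells, 3.05 and 2.79 in IR cells and 4.07 and 1.31 in CR cells. The resistant libraries lay below the parental libraries of their line, and below the DMSO libraries too except that Huh7-CR overlapped with Huh7 DMSO cells. The activator sum in Huh7-IR was 48.9 and 28.9 CPM per kb, of which PLAT made up 49.7% and 12%. PLAT made up 41.2% and 35.5% in Huh7-CR, but at most 1.93% in the resistant Hep3B libraries.

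**Figure D3:**
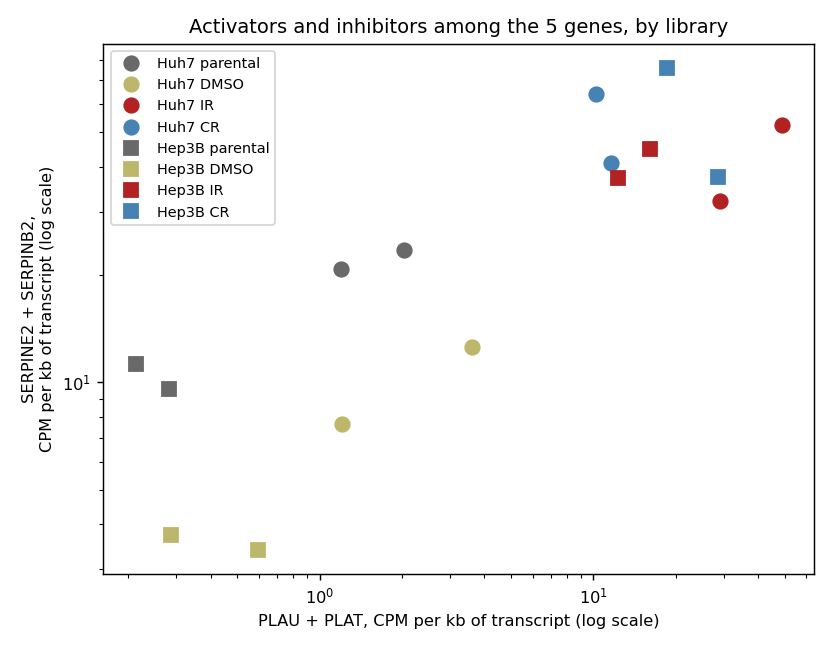
Summed CPM per kb of transcript of PLAU and PLAT (x axis, log scale) against that of SERPINE2 and SERPINB2 (y axis, log scale), 1 point per library, with circles for Huh7, squares for Hep3B and colours for the groups. The resistant libraries sit to the right of all parental and DMSO libraries, at activator sums from 10.2 CPM per kb upward, and the sum of SERPINE2 and SERPINB2 spans 3.39 to 75.7 CPM per kb.

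Another 29 genes of the system were then examined by role. Of these, 27 passed the filter, and in Huh7 7 rose and 13 fell in IR cells, and 7 rose and 10 fell in CR cells. The Hep3B counts were 5 up and 4 down for IR, and 7 up and 7 down for CR. Over all genes, 31.1%, 20.9%, 15.7% and 20.0% were called higher and 17.8%, 13.6%, 11.4% and 12.3% lower in these comparisons. MRC2 is the 1 gene of the 27 that passed the filter only through resistant libraries, and without it 6, 7, 5 and 6 rose. The median log2 fold changes of the 27 genes were -0.63, -0.42, 0.024 and 0.019. With edgeR the split was 6 to 3 in Hep3B-IR and 5 to 8 in Hep3B-CR. PLG itself, the gene of plasminogen, had 0.0134 to 2.44 CPM and was not tested, and HRG did not pass the filter either. In the DMSO cells 3 of the 27 genes rose and 1 fell in Huh7, and 4 rose in Hep3B (2 and 0, and 1 and 0, with edgeR). Of all genes, 3.46% rose and 1.37% fell in the Huh7 DMSO cells, and 1.07% rose and 0.513% fell in the Hep3B DMSO cells.

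Among the inhibitors of plasmin and its helpers, CPB2, the gene of a carboxypeptidase that protects fibrin, fell in all 4 resistant populations. Its level was 27.1 and 41.8 CPM in Huh7 parental cells against 0.0663 and 0.322 CPM in Huh7-IR and 1.00 and 1.92 CPM in Huh7-CR. Hep3B cells had 15.5 and 13.7 CPM in parental cells, 2.89 and 5.44 CPM in Hep3B-IR and 0.397 and 0.362 CPM in Hep3B-CR. SERPINF2, the gene of alpha-2-antiplasmin, the main plasmin inhibitor, fell by 3.75 and 4.87 in Huh7-IR and Huh7-CR and by 1.91 in Hep3B-CR (limma adjusted p = 1.2e-05, 2.7e-06 and 0.00297). In Hep3B-IR its change was 0.20 (limma adjusted p = 0.758). F11, the gene of coagulation factor XI, was listed among the activators of the contact system and not among the inhibitors. It fell in all 4 comparisons by 1.52, 1.57, 0.68 and 1.82. Its Hep3B-IR call was lost in 10 of 16 alternatives, edgeR and DESeq2 among them. These are genes made mainly by hepatocytes. The hepatocyte sums given above were lower in all 4 resistant populations, Hep3B-IR included, where SERPINF2 was not called. The part of these sums in the falls was not tested.

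Of the genes that bind plasminogen at the cell surface, S100A10 fell in Huh7-IR and rose in both resistant Hep3B populations. Its level was 260.0 and 273 CPM in Huh7 parental cells, 132 and 118 CPM in Huh7-IR and 368 and 530.1 CPM in Huh7-CR. Hep3B cells had 4.91 and 6.16 CPM in parental cells, 52.2 and 31.6 CPM in Hep3B-IR and 99.7 and 63.2 CPM in Hep3B-CR. It fell by 1.09 in Huh7-IR (limma adjusted p = 0.00429) and rose by 2.68 in Hep3B-IR and 3.63 in Hep3B-CR (limma adjusted p = 2.0e-05 and 2.2e-06). The rise in Huh7-CR, 0.73 (limma adjusted p = 0.0476), was lost in 9 of 16 alternatives, among them TMM scaling and leaving out Huh7-CR replicate 2 (0.46), parental replicate 1 (0.69) or parental replicate 2 (0.76). The difference in mean change between lines was -3.33 (limma adjusted p = 2.2e-05). ANXA2, which forms a complex with S100A10, rose in Hep3B-IR by 0.92, and its other changes were 0.04, 0.38 and 0.48, none of them called.

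Among the receptors that clear protease and inhibitor complexes, VLDLR rose in all 4 comparisons, by 1.75, 2.14, 1.45 and 1.59 (limma adjusted p = 0.00033, 0.000133, 0.00269 and 0.00130). Its 8 resistant libraries had 32.6 to 78.8 CPM and its 8 other libraries 11.4 to 27.1 CPM, without overlap. LRP1, the main clearance receptor of these complexes, rose by 2.28 in Huh7-IR and 1.71 in Huh7-CR against parental cells, but both calls were lost against DMSO cells (0.84 and 0.27), and the Huh7-CR call when any 1 library of either group was left out (1.58 to 1.85). Its Hep3B values were -0.07 and 1.19, not called. In the group of uPAR partners, ITGA3, the gene of integrin alpha 3, rose by 8.44, 5.61, 6.18 and 7.97 (limma adjusted p = 4.3e-09, 1.4e-07, 1.6e-07 and 3.0e-08). It had 0.616 to 2.92 CPM in the parental and DMSO libraries and 82.3 to 702 CPM in the resistant ones. ITGB3, the gene of integrin beta 3, rose by 4.88, 3.86, 1.87 and 2.84, and its call in Hep3B-IR was lost with a pseudocount of 4 CPM.

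**Figure D4:**
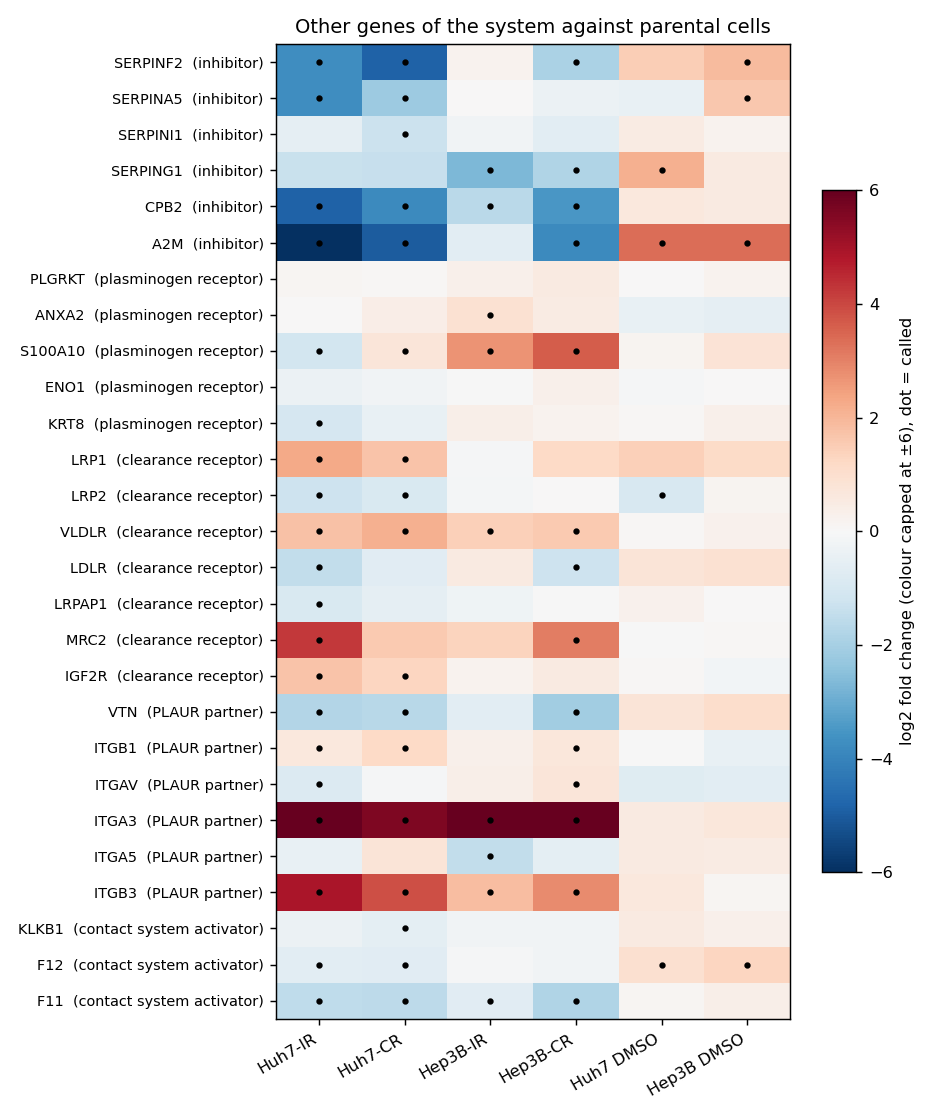
log2 fold change against parental cells (colour, capped at ±6) of the 27 other genes of the system that passed the filter, by role, in the 4 resistant populations and the DMSO cells, with a dot for each call. ITGA3, ITGB3 and VLDLR are called higher and CPB2 and F11 lower in all 4 resistant populations, while S100A10 is lower in Huh7-IR (-1.09) and higher in the other 3, a call that fails with TMM scaling in Huh7-CR.

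The factors that bind the AP-1 and ETS motifs marked above were measured as well. Of 12 such genes, 4 rose and 1 fell in Huh7-IR (4 and 2 with edgeR), 3 rose and 1 fell in Huh7-CR, and 7 rose in each Hep3B population. The shares of all genes called higher, 31.1%, 20.9%, 15.7% and 20.0%, stand beside 4, 3, 7 and 7 of 12, so the Huh7 counts are near the background. ETS1 rose in all 4, by 2.70, 2.39, 4.15 and 5.62 (limma adjusted p = 9.2e-06, 4.0e-05, 1.0e-06 and 1.1e-07), with 0.404 and 0.422 CPM in Hep3B parental cells and 83.4 and 56.4 CPM in Hep3B-CR. FOSL2, an AP-1 subunit, also rose in all 4, by 3.61, 3.05, 1.72 and 2.45 (limma adjusted p = 7.6e-06, 4.8e-05, 0.00365 and 0.000312). FOSL1 was called higher in 3 of 4 (2.12, 1.36 and 1.94, with 0.85 in Hep3B-IR). The Huh7-CR call of FOSL1 was lost without parental replicate 2 or Huh7-CR replicate 1. ATF3 was called higher in 3 of 4 (2.03, 1.73 and 2.96, with 1.44 in Huh7-CR). The ATF3 call in Huh7-IR was lost without Huh7-IR replicate 1 (1.08), and the call in Hep3B-IR when any 1 library of Hep3B-IR or Hep3B parental cells was left out. ETV4, an ETS factor, was the gene that fell in Huh7, by 1.53 in IR and 2.26 in CR cells (limma adjusted p = 0.000139 and 1.3e-05). In Hep3B it was called higher in IR (0.79) and CR cells (0.86), calls lost against DMSO cells and when any 1 library of the Hep3B-IR comparison, or Hep3B parental replicate 2 (0.84) or Hep3B-CR replicate 2 (0.60), was left out. Against DMSO cells the number of factors called higher was 4, 3, 3 and 5, where 28.3%, 18.8%, 17.3% and 19.5% of all genes were. Whether any of these factors acts on the 5 genes was not tested.

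SERPINB2 lies in a cluster of clade B serpin genes on chromosome 18. Of 9 other genes of that cluster, 1 passed the filter, SERPINB8, which rose in all 4 comparisons by 1.94, 1.89, 1.22 and 1.64 (limma adjusted p = 3.7e-05, 8.2e-05, 0.00247 and 0.000293). Its level was 3.42 and 2.85 CPM in Huh7 parental cells and 7.22 and 6.79 CPM in Hep3B parental cells, and 12.4 to 24.9 CPM over the resistant libraries. SERPINB7 had 0 reads in the same groups as SERPINB2 and at most 0.315 CPM in the resistant Huh7 libraries.

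The likeness of patterns is given as Pearson's r of log2(CPM + 1) over the 16 libraries, which fall into resistant and other groups, so that r mainly follows that split and is a description. Within the system r was 0.87 for PLAU and PLAUR, 0.84 for PLAU and SERPINE2 and 0.80 for PLAUR and SERPINE2, and it was 0.53 to 0.59 for PLAT with each of the other 4 genes. SERPINB2 had r from 0.24 with PLAU to 0.59 with PLAT. Over all genes tested, the genes most like PLAU were CAPN5 (0.97), SPIRE1 (0.97) and the antisense transcript WDFY3-AS2 (0.96), whose reads may not be separable from those of its partner gene. Those most like PLAT were PKD1L2 (0.99), TM4SF19 (0.99) and NIPAL4 (0.98), of which NIPAL4 had 0 CPM in all Huh7 and Hep3B parental and DMSO libraries. For PLAUR they were AFAP1 (0.96), F2RL1 (0.96) and the receptor tyrosine kinase AXL (0.95), which had 0.0268 to 0.821 CPM in parental and DMSO libraries and 45.1 to 214 CPM in resistant ones. For SERPINE2 they were LOC101927178 (0.95), TMEM65 (0.95) and LIMS1 (0.94), and for SERPINB2 ARHGAP6 (0.94), MALL (0.93) and COL6A3 (0.92).

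Several of these genes are also expressed by fibroblasts, endothelial cells and leukocytes, whose markers were therefore read. The summed CPM of 9 fibroblast genes was 392 to 526 in Huh7 parental cells, 317 to 342 in Huh7-IR and 513 to 799 in Huh7-CR, and 63.2 to 70.4 in Hep3B parental cells, 72.5 to 103 after rising and 73.6 to 94.0 after constant dosing. Of the 9, 3 reached 1 CPM in both libraries of either parental line, 7 in each resistant Huh7 group and 4 in each resistant Hep3B group, and THY1 stayed at or below 0.0569 CPM throughout. In the parental lines the sums were made up mainly of LUM and PDGFRA. The largest part was COL1A2 in Huh7-IR and Huh7-CR (202 to 405 CPM) and COL1A1 in Hep3B-CR (66.2 and 47.3 CPM). COL1A1 rose in all 4 comparisons, by 5.04, 4.21, 4.69 and 5.69 (limma adjusted p = 1.3e-05, 9.1e-05, 6.8e-05 and 1.5e-05). In Huh7-IR and Huh7-CR, COL1A2 rose by 5.20 and 5.93, COL3A1 by 2.97 and 4.91 and PDGFRB by 0.98 and 1.23. ACTA2 passed the filter only through the libraries of these cells, so its changes of 1.48 and 3.16 are a description without a test. LUM fell by 2.90 and 0.87 and PDGFRA by 5.46 and 3.11 in the same cells. In resistant Hep3B cells PDGFRB fell by 1.35 (IR) and PDGFRA fell by 2.33 (CR), and beyond these and COL1A1 no fibroblast gene that passed the filter was called there. Among endothelial markers, the sum of 7 genes was at most 13.0 CPM in any library. Its range was 2.21 to 2.28 CPM in Huh7 parental cells, 6.56 to 13.0 in Huh7-IR and 11.3 to 11.6 in Huh7-CR. In Hep3B it was 1.58 to 1.87 CPM in parental cells, 4.11 to 4.34 in IR and 4.23 to 7.44 in CR cells. ESAM rose in all 4 comparisons, by 2.40, 2.67, 0.97 and 1.40. PECAM1 fell by 1.09 in Huh7-IR and 0.95 in Huh7-CR and was not called in resistant Hep3B cells. CDH5 was at 0 in 12 of the 16 libraries and highest at 1.49 CPM in Huh7 DMSO replicate 2. Summed CPM of 8 leukocyte genes was 37.6 to 45.0 in Huh7 parental cells, 48.9 to 80.6 in Huh7-IR and 81.5 to 114 in Huh7-CR. Hep3B sums were 11.5 to 22.3 in parental cells, 40.6 to 55.7 in Hep3B-IR and 32.4 to 41.7 in Hep3B-CR. CD68 rose in all 4 comparisons, by 3.62, 3.32, 2.19 and 1.78 (limma adjusted p = 2.3e-05, 8.3e-05, 0.00214 and 0.00625). Its level was 2.58 to 5.47 CPM in Huh7 parental cells and 46.3 to 71.9 CPM in the resistant Huh7 libraries. Hep3B cells had 7.46 to 10.3 CPM of CD68 in parental and 27.6 to 51.2 CPM in resistant libraries. PTPRC stood at or below 1.32 CPM in every library and fell in Huh7-IR and Huh7-CR, while CD14 and LYZ fell in Huh7-IR. In such bulk samples, fewer cells of a type and less RNA per cell cannot be told apart. The part of these marker levels in the results was not tested.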

How the data were processed

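Poly(A)-enriched RNA of 16 libraries (8 groups of 2) was sequenced with a stranded kit. The authors aligned reads with STAR to hg19, counted unique hits over RefSeq exons with QuasR and deposited CPM, reads per 1000000 counted in genes. Whole reads were recovered from the CPM (100.0% whole within 0.05 reads), with totals of 46613302 to 76860251. The strand setting of the counting is not given in the sources used here. Identifiers were matched to symbols by a RefSeq table (26111 of 26258).

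Groups were compared with limma 3.58.1 (trend) on log2(CPM + 1) in 1 model of 8 groups (R 4.3.3), two-sided, with Benjamini-Hochberg adjustment over 15019 genes. The fold threshold, 0.58, follows the study's methods, which used an unadjusted p. edgeR 4.0.16 and DESeq2 1.42.0 on the recovered reads, other scalings (TMM, quantile), pseudocounts (0.25 and 4 CPM), filters, reference groups, the replicate block and leaving out each library were alternatives. The fitting script was tested on simulated data. Promoters are RefSeq's (GRCh38.p14) and gene positions GENCODE's on GRCh37; levels per kb use the length of the MANE Select transcript. The 5 genes always, other genes of the system from a list with 7 always named and those called in 1 direction in all 4 resistant comparisons, AP-1, ETS and serpin genes called in 1 direction in at least 3 of 4, and the 3 genes most like each of the 5 were named. ETV4 and genes behind counts of 5 or fewer were named after their values were seen. Members and lists were chosen with earlier results of these data known. Of the listed genes of the system, 1 is not reported here. A floor of 3 reads was used for genes at 0.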

Additional observations from a re-analysis of the deposited data

Results flagged for a closer look

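The change in resistant cells differed between Huh7 and Hep3B for 2 of the 5 genes, by a test of the difference itself. For PLAU the difference in mean change, Huh7 minus Hep3B, was -2.04 on the log2 scale (SE 0.46, limma adjusted p = 0.00523), and it was called in all 24 alternatives, with values from -3.32 to -1.15. The parental level of PLAU was higher in Huh7 (2.80 and 4.70 CPM) than in Hep3B (0.458 and 0.619 CPM). For PLAT the same difference was 3.74 (SE 0.70, limma adjusted p = 0.00183), called in all 24 alternatives, with values from 2.38 to 6.15. PLAT passed the filter only through resistant libraries, and this holds for every alternative except the fit without a filter. All 24 reuse the same libraries and are not independent support. Without a filter the limma adjusted p of the PLAT difference was 0.00736. Without Huh7-IR replicate 1, the library with the highest PLAT level (74.5 CPM), the difference was 3.06. All groups had 2 libraries, too few for a search for single libraries that stand apart.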

How the results depend on the processing

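Over the 5 genes and all comparisons, 754 values were recomputed, of which 674 kept their direction and call, 31 lost a call, 34 gained one and 15 turned sign. The counts of genes past the thresholds in the 4 resistant populations (4, 5, 3 and 3, with SERPINB2 in Huh7-CR) stayed within 1.5 times of these. In Huh7 DMSO cells the count was 2 with DESeq2 and with an unadjusted p, and 0 to 1 when single libraries were left out. In Hep3B DMSO cells it was 1 with TMM, quantile normalization, DESeq2, the replicate block and an unadjusted p. Between Huh7-IR and Huh7-CR it was 2 with SERPINB2, 1 with a pseudocount of 4 CPM, no filter, a filter of 5 CPM, edgeR and DESeq2, 0 with Huh7 or the 2 groups modelled alone, and 0 to 3 with single libraries left out. Between Hep3B-IR and Hep3B-CR it was 2 with DESeq2 and with Hep3B alone, and 0 to 1 with single libraries left out. Between the parental lines it was 1 whichever library was left out. For the difference between lines it was 4 with DMSO cells as reference and with an unadjusted p, and 2 to 4 with single libraries left out. The cause of these shifts was not tested.

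All turns of sign were in changes without a call. With DMSO cells as reference, PLAT in Hep3B-IR became -0.13 and the line difference of PLAUR became -0.51. With single libraries left out, PLAT was -0.017 to 0.10 in Hep3B-IR, -0.040 to 0.44 in Huh7 DMSO cells, -0.24 to 2.46 between Huh7-IR and Huh7-CR and -0.058 to 0.063 between the parental lines, PLAU -0.29 to 0.97 for Huh7 DMSO and -0.015 to 0.56 for Hep3B DMSO cells, PLAUR -0.28 to 0.12 for Hep3B DMSO cells, and SERPINE2 -0.66 to 0.063 between Huh7-IR and Huh7-CR and -0.88 to 0.12 between Hep3B-IR and Hep3B-CR. PLAT between the parental lines was -0.037 with quantile normalization and -0.0030 with a pseudocount of 0.25 CPM. The median of all genes in Huh7-IR moved from 0.19 to 0.04 with TMM and to 0.0035 with quantile normalization, and in Hep3B-CR from 0.11 to -0.0038 with quantile normalization, without any of PLAU, PLAT or PLAUR losing a resistant call.

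Libraries with the same replicate number did not deviate together throughout: r of their deviations was -0.22 to 0.44 over 28 pairs of groups, above 0.1 in 13. With the replicate number as a block, the genes called went from 7336 to 7350 for Huh7-IR, and among DMSO cells from 726 to 846 (Huh7) and from 237 to 294 (Hep3B), and of the 5 genes SERPINE2 in Hep3B DMSO cells was called (adjusted p = 0.0498), while no other call changed. With 2 libraries a group, depth limits PLAT in Hep3B and SERPINB2, where single libraries held 3 to 83 and 0 to 234 reads.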

Other observations

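A2M, the gene of alpha-2-macroglobulin, a broad protease inhibitor of plasma, was chosen for description here after its values were seen. It stood at 88.4 and 153 CPM in Huh7 parental cells, 1019 and 1370.1 CPM in Huh7 DMSO cells, 0.796 and 0.215 CPM in Huh7-IR and 2.04 and 3.35 CPM in Huh7-CR. Hep3B cells had 25.1 and 78.5 CPM in parental cells, 389 and 538 CPM in DMSO cells, 9.25 and 81.3 CPM in Hep3B-IR and 2.05 and 2.34 CPM in Hep3B-CR. DMSO cells were above and CR cells below parental cells in both lines without overlap. A2M rose by 3.33 in the DMSO cells of each line (limma adjusted p = 0.0292 in Huh7 and 0.0474 in Hep3B), calls lost in 5 and 11 of 15 alternatives, and fell by 6.31 in Huh7-IR, 5.01 in Huh7-CR and 3.83 in Hep3B-CR (limma adjusted p = 2.3e-05, 0.000235 and 0.00177). In Hep3B-IR its change was -0.65 (limma adjusted p = 0.559), with replicates that differed most among the groups of that line.

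MRC2, a receptor that takes up collagen and binds uPAR, was also chosen after its values were seen. It passed the filter only through resistant libraries. Its level was 0.0291 and 0 CPM in Huh7 parental cells, 46.7 and 6.71 CPM in Huh7-IR and 2.74 and 1.37 CPM in Huh7-CR. Hep3B parental cells had 0.0404 and 0.0422 CPM, the IR cells 2.46 and 0.995 CPM and the CR cells 7.96 and 7.52 CPM. The Huh7-IR libraries lay far apart, and without replicate 1 the change was 2.93. Over all libraries the log2 change of MRC2 was 4.24 in Huh7-IR, 3.07 in Hep3B-CR, 1.55 in Huh7-CR and 1.34 in Hep3B-IR. These values are a description and carry no test here, since resistant libraries brought the gene into the tested set.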
